A study of Mus musculus with 25 samples.

Results

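The genes described here encode the proteins of the mitochondrial ribosome under the symbols Mrpl and Mrps. They were taken as every row of the deposited count table whose symbol is Mrpl or Mrps followed by a number and at most 1 letter a, b or c, which gave 78 of 21720 genes. By symbol, 49 are Mrpl and 29 are Mrps genes. Of the 78, 51 encode proteins of the large subunit, 26 encode proteins of the small subunit and 1 (Mrps36) encodes a protein of neither. The large subunit count includes Mrps30 and Mrps18a, whose proteins sit in the large subunit despite their names.

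Mitochondria keep a small genome whose mRNAs code for core subunits of the respiratory chain and ATP synthase, and a dedicated ribosome translates them. All proteins of that ribosome are encoded in the nucleus, made in the cytosol and imported, and they assemble on rRNA made inside the organelle. Some have counterparts in the bacterial ribosome (45 of the 78 genes here), while 32 genes were classed as specific to mitochondria. Mrps18a and Mrps18b are among the 32, although they are paralogs of Mrps18c, which was classed as having a bacterial counterpart. Neurons of the cortex rely on oxidative phosphorylation for most of their ATP, and so on the products of this ribosome.

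RNA came from the brain cortex of 25 male mice aged 6 months, 5 per group. Wild type mice were C57BL/6J on vehicle. The 4 other groups were transgenic mice of strain B6C3 with the genotype APPswe, PSEN1dE9, an amyloid model, and differed in what was injected. They received vehicle (called the model group here), 5 mg/kg of vestitol, 5 mg/kg of salviolone, or a combination with 2.5 mg/kg of each compound. Both compounds are plant natural products. Injections were intraperitoneal and daily for 3 months. Strain and transgene differ together between wild type and the model, so their effects cannot be told apart. The transgene in this line is driven by the mouse prion protein promoter, which is active broadly in the brain and is not limited to a cell type. In bulk tissue, fewer cells of a type and less RNA per cell cannot be told apart.

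Total counts ran from 59376320 to 109776852 per library. App, whose transgene copy is also counted, was 3439 to 5066 CPM (counts divided by the TMM-scaled library total) in the 20 transgenic mice. It was 1383 to 1800 CPM in the 5 wild type mice, so these libraries matched their genotype labels. The App ranges of the 4 transgenic groups overlapped, so App cannot check the treatment labels. Marker lists for neighbouring tissue and for neurons differed between mice and groups, and tissue sampling and group cannot be told apart where they differ. The mean log2 CPM of 13 genes of hypothalamus and basal forebrain ranged from −0.58 to 3.34 in wild type mice and from −0.04 to 1.76 in model mice, while combination mice had 1.84 to 4.17, and wild type mouse 3 held pituitary transcripts. Markers of cortical excitatory neurons had a mean log2 CPM of 7.14 to 7.93 in wild type mice, 7.64 to 8.04 in model mice and 7.11 to 7.51 in combination mice. The score of 6 striatum markers was 6.11 to 6.64 in model mice, 6.28 to 6.97 in vestitol mice, 5.81 to 6.28 in salviolone mice and 6.75 to 7.54 in combination mice. Only the hypothalamus score was added to the fit, and the part of the other markers in the results was not tested.

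All 78 genes passed the filter on low counts. Their lowest count in any library was 66, so depth did not limit detection. On the length-corrected FPKM scale the mean over the 5 group means ran from 2.32 to 66.8, a 28.8-fold range, with a median of 12.1. That median was above the 5.43 FPKM of all 16515 tested genes and below the 30.4 FPKM of 78 nuclear oxidative phosphorylation subunits and the 85.2 FPKM of 80 cytosolic ribosomal proteins. The 13 mitochondrially encoded mRNAs, which this ribosome translates, had a median of 110 FPKM. Large subunit genes had a median of 15.2 FPKM and small subunit genes 11.2 FPKM. The order of the genes depends on the length correction. In the model mice Mrpl30 was 34.4 CPM at 66.1 FPKM, Mrpl3 61.4 CPM at 18.7 FPKM and Mrpl15 21.5 CPM at 2.59 FPKM.

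Mrpl30, a large subunit protein with a bacterial counterpart, had the highest level at 66.8 FPKM. Mrpl51, specific to mitochondria, followed at 59.5 FPKM. Mrpl12, the counterpart of the bacterial stalk protein that recruits translation factors, stood at 50.5 FPKM, Mrpl50 at 47.5 FPKM and Mrpl19 at 39.9 FPKM. Mrpl30 was 66.1 ± 1.59 FPKM and Mrpl51 59.4 ± 2.10 FPKM in the model mice (mean ± SD, n = 5), whereas with salviolone Mrpl30 was 66.7 ± 8.53 and Mrpl51 63.1 ± 5.25 FPKM. These neighbours in the order therefore stood apart in the model and overlapped within their spread with salviolone. At the bottom were Mrps15 with 2.32 FPKM, Mrpl54 with 2.43 FPKM, Mrpl15 with 2.44 FPKM, Mrps24 with 2.45 FPKM and Mrpl57 with 2.48 FPKM, and the SD of these genes within a group (0.113 to 0.489 FPKM) exceeded the gaps between neighbours.

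The 3 Mrps18 paralogs, which descend from 1 bacterial protein, differed in level. Mrps18a was at 30.0 FPKM, Mrps18c at 19.8 FPKM and Mrps18b at 6.58 FPKM, and none of the 3 was called in any of the 5 comparisons. Without length correction Mrps18b was above Mrps18c, at 14.4 ± 1.38 and 11.4 ± 0.914 CPM in the model mice. Mrps36, now assigned to the 2-oxoglutarate dehydrogenase complex of the citric acid cycle, was at 12.8 FPKM, close to the middle of the list. Its mean was 10.5 ± 0.892 CPM in wild type and 12.8 ± 0.658 CPM with the combination, and it too was called in no comparison.

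**Figure D1:**
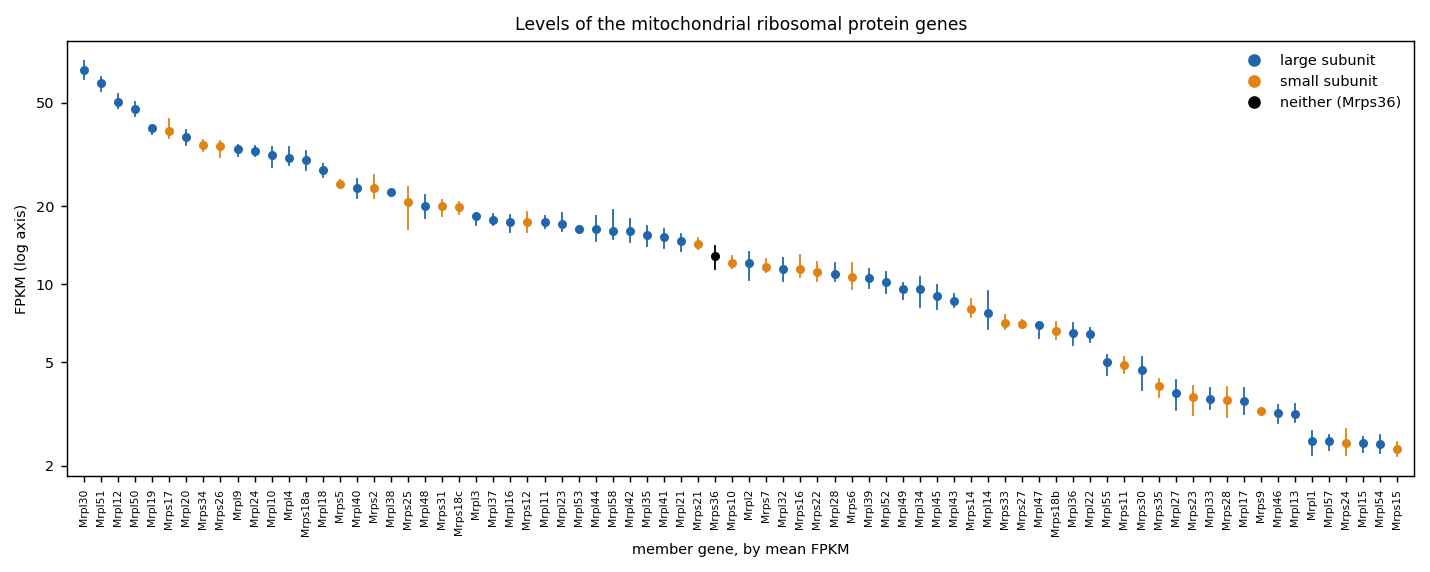
Deposited FPKM (log axis) of the 78 genes, ordered by the mean of the 5 group means, which the point gives; the line spans the lowest to the highest group mean. Levels run from 2.32 FPKM (Mrps15) to 66.8 FPKM (Mrpl30), and the group means of 1 gene mostly lie close together.

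The SD of log2 CPM within groups had a median of 0.124 over the members and 0.188 over all tested genes. Over the 9416 tested genes within the members' FPKM range it was 0.137. It was 0.0892 over nuclear oxidative phosphorylation subunits and 0.0898 over cytosolic ribosomal proteins, which have higher median FPKM. A low spread is thus not particular to the members. Among them, Mrpl45, which places the ribosome at the inner membrane, had the lowest value at 0.0564. Mrpl1 had the highest at 0.694, and 1 mouse set it, as described further on.

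The mean log2 CPM over the 78 genes summarises the family in each mouse. It was 4.298, 4.298, 4.294, 4.302 and 4.299 in the 5 wild type mice and 4.339, 4.360, 4.358, 4.366 and 4.359 in the model mice. Every model mouse was therefore above every wild type mouse, by a margin of a few hundredths of a log2 unit. With vestitol it was 4.300, 4.316, 4.352, 4.315 and 4.323, which overlaps the model in 1 mouse. With salviolone it was 4.425, 4.369, 4.339, 4.401 and 4.380, and with the combination 4.408, 4.428, 4.410, 4.426 and 4.417. All 5 combination mice were above all 5 model mice, while salviolone mice overlapped both. The median tested gene ran from 4.174 to 4.228 over all 25 mice, from 4.174 to 4.205 in the model and from 4.195 to 4.228 with the combination. As a share of all counts the family made up 0.174% to 0.182% in wild type mice and 0.181% to 0.188% in model mice. The treated mice had 0.177% to 0.181% (vestitol), 0.182% to 0.192% (salviolone) and 0.190% to 0.195% (combination).

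The group means of the nuclear oxidative phosphorylation subunits stood in nearly the same order as those of the ribosomal protein genes. Nuclear oxidative phosphorylation subunits had mean log2 CPM of 5.975 to 6.086 in wild type mice, 6.041 to 6.128 in model mice, 6.004 to 6.090 in vestitol mice, 6.087 to 6.201 in salviolone mice and 6.115 to 6.150 in combination mice. The mitochondrially encoded mRNAs were lowest with salviolone (7.349 to 7.802) and the combination (7.413 to 7.758), compared with 7.759 to 8.319 in the model and 8.225 to 8.431 with vestitol. Between vestitol and salviolone the mRNAs that the ribosome translates were without overlap, whereas the score of the ribosomal protein genes overlapped (4.300 to 4.352 and 4.339 to 4.425). Cytosolic ribosomal protein genes were at 6.706 in wild type mouse 3, which held pituitary transcripts, and at 6.476 to 6.577 in the other wild type mice. They were 6.487 to 6.604 in model mice, 6.507 to 6.626 in vestitol mice and 6.565 to 6.627 in salviolone mice. In combination mice they were 6.584 to 6.709, above all wild type mice but mouse 3.

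**Figure D2:**
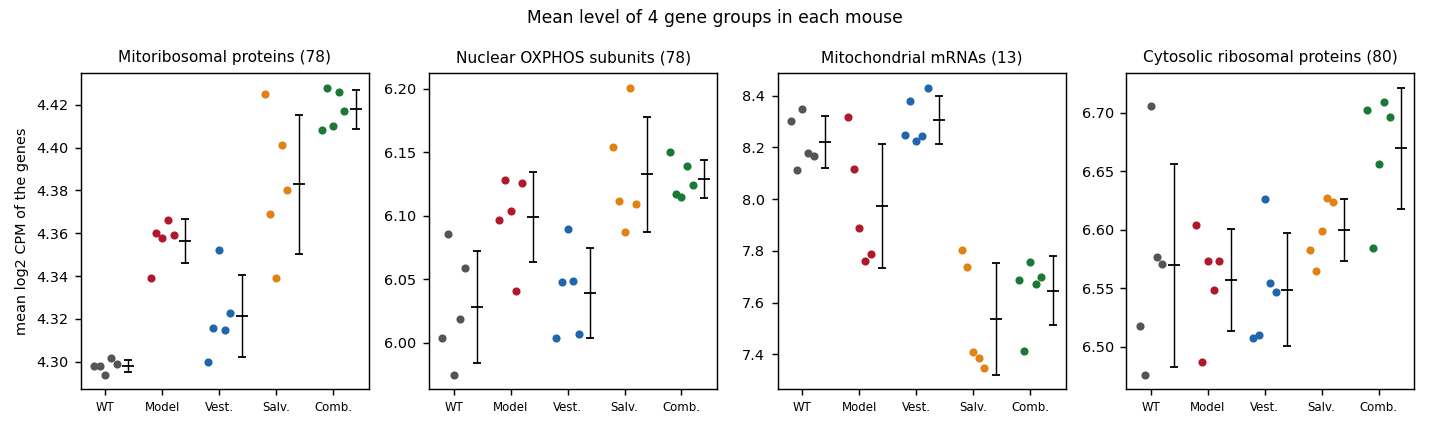
Mean log2 CPM of 4 gene groups in each of 25 mice (points), with mean and SD of the 5 mice beside them; the vertical axes differ and do not start at 0. The mitochondrial ribosomal protein genes span 4.294 to 4.428, and mitochondrially encoded mRNAs 7.349 to 8.431 with the lowest values in salviolone and combination mice.

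Model mice were compared with wild type to show how the family stands in the amyloid model. Of the 78 genes, 7 rose and 1 fell (edgeR quasi-likelihood test, Benjamini-Hochberg adjusted p under 0.05 over 16515 genes), which is 10.3% of the members beside 11.6% of all tested genes (5.37% higher and 6.21% lower). The share called was thus close to the background. Of the estimates, 54 were above 0 (69.2%, against 48.6% of all tested genes), with a median log2 fold change of 0.066 against −0.006. By subunit, 5 rose and 1 fell of 51 large subunit genes and 2 rose of 26 small subunit genes. In 4 genes (Mrpl40, Mrpl45, Mrpl47 and Mrps17) every model mouse was above every wild type mouse, 5.13% of members beside 4.57% of all tested genes.

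Mrpl42, a large subunit protein specific to mitochondria (mm39 chr10:95316668-95337802), was 24.1, 25.4, 22.1, 17.3 and 22.1 CPM in wild type and 28.0, 29.4, 28.8, 28.1 and 24.2 CPM in the model. The groups overlapped through model mouse 5, and wild type mouse 4 was the lowest. The log2 fold change was 0.32 ± 0.09 (SE, adjusted p = 0.0168).

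Mrps17, the counterpart of a bacterial small subunit protein that binds rRNA early in assembly (chr5:129792561-129799620), was 42.2, 44.1, 42.0, 46.0 and 38.4 CPM in wild type and 53.3, 53.8, 47.5, 49.4 and 49.7 CPM in the model. All 5 model mice were higher, and the estimate was 0.25 ± 0.07 on the log2 scale (adjusted p = 0.0203). Mrpl45 (chr11:97206542-97220746) was 26.9 to 30.0 CPM in wild type and 31.7 to 34.3 CPM in the model, again without overlap. Its log2 fold change was 0.17 ± 0.05 (adjusted p = 0.0254), the smallest of the 7 that rose.

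Mrpl40 (chr16:18690768-18695612), another large subunit protein found only in mitochondria, went from 15.7 ± 1.42 to 18.9 ± 0.780 CPM (log2 fold change 0.27 ± 0.08, adjusted p = 0.0315). Mrps35 (chr6:146944262-146975489), of the small subunit, went from 17.8 ± 0.724 to 20.8 ± 2.02 CPM (0.22 ± 0.07, adjusted p = 0.0350), although model mouse 1, at 17.7 CPM, lay within the wild type range. Mrpl35 (chr6:71789981-71800794), a counterpart of a bacterial protein, went from 22.8 ± 2.51 to 27.2 ± 0.868 CPM (0.26 ± 0.08, adjusted p = 0.0466).

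Mrps30 (chr13:118514917-118523788), a large subunit protein in spite of its symbol, had the largest estimate among the members that rose. It was 5.26, 6.77, 7.45, 7.03 and 5.75 CPM in wild type and 7.79, 10.2, 6.72, 10.1 and 9.04 CPM in the model. Model mouse 3 fell among the wild type mice. The log2 fold change was 0.44 ± 0.14 (adjusted p = 0.0409).

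Mrpl10 was the only member called lower in the model. Its protein forms the base that carries the Mrpl12 stalk, and the gene lies at chr11:96932386-96940039. It was 49.8, 38.8, 49.3, 46.1 and 48.4 CPM in wild type and 43.6, 41.1, 40.3, 38.8 and 38.9 CPM in the model. Wild type mouse 2 was as low as the lowest model mouse, and the other 4 were above all model mice. The log2 fold change was −0.20 ± 0.06 (adjusted p = 0.0472). Mrpl12 itself was 33.1 ± 2.30 CPM in wild type and 35.2 ± 0.985 CPM in the model (0.09 ± 0.06, adjusted p = 0.37).

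With the hypothalamus score as a covariate none of the 78 was called (1.61% of all genes were), and Mrpl10 moved to −0.11, whereas the 7 genes that rose kept estimates of 0.15 (Mrpl45) to 0.44 (Mrps30). With only the 2 groups in the fit 0 were called (2.2% of all genes) at estimates of 0.17 to 0.44 and, for Mrpl10, −0.20, and leaving out single mice gave 2 (without wild type mouse 4, or without model mouse 2) to 9 calls.

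The 3 treatments were each set against the same 5 model mice, so these comparisons share their controls and are not independent of each other or of the comparison with wild type.

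With vestitol no member was called, as for all tested genes (0% called, edgeR). At an unadjusted p under 0.05 there were 7 members (8.97%, beside 7.56% of all tested genes), and DESeq2 called 0. The estimates leaned downwards, with 30 of 78 above 0 and a median log2 fold change of −0.053 against −0.002 for all genes. The smallest p belonged to Mrpl42, at 22.1, 22.8, 23.4, 23.5 and 20.9 CPM with vestitol. All 5 values were below all 5 of the model, and the log2 fold change was −0.30 ± 0.09 (adjusted p = 0.404). It was the only member whose groups did not overlap (1.28% of members beside 1.62% of all genes). Mrpl20, whose bacterial counterpart is needed for early large subunit assembly, went from 31.0 ± 2.13 to 27.1 ± 2.33 CPM (−0.19 ± 0.07, adjusted p = 0.50). Mrpl15 had −0.21 ± 0.08 (adjusted p = 0.569) and Mrpl13 −0.19 ± 0.08 (adjusted p = 0.586). With the hypothalamus score in the fit there were 0 calls as well, and Mrpl42 stood at −0.31.

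With salviolone no member was called either, beside 0.0242% of all tested genes. At an unadjusted p under 0.05 there were 9 members (11.5%, as of all tested genes), and DESeq2 again called 0. Here 47 of 78 estimates were above 0, with a median of 0.032, and the median was 0.068 over the small subunit genes and 0.004 over the large. Mrpl10 was 49.1, 45.2, 48.2, 46.5 and 46.2 CPM, all above the model mice (0.21 ± 0.06, adjusted p = 0.195). Mrpl45 was 34.4 to 37.2 CPM, also above all model mice (0.15 ± 0.05, adjusted p = 0.228). The members without overlap were thus 2, or 2.56%, beside 2.36% of all genes. Mrpl4 had 0.20 ± 0.07 (adjusted p = 0.24). Mrpl58, a peptidyl-tRNA hydrolase built into the large subunit that releases stalled chains, had 0.31 ± 0.10 (adjusted p = 0.24), with 33.9, 26.2, 27.8, 34.8 and 26.0 CPM against 20.3 to 30.5 CPM in the model. The hypothalamus score left 0 calls, with Mrpl10 at 0.21 and Mrpl58 at 0.31.

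The combination, at a lower dose of each compound, had 2 members called higher and 2 called lower (edgeR, adjusted p under 0.05), or 5.13% beside 15% of all tested genes (7.83% higher and 7.13% lower). No test of the difference between these shares was made. Of the estimates, 51 were above 0, with a median of 0.043 against 0.004. Groups were free of overlap in Mrpl30 (higher) and Mrps17 (lower), 2.56% of members beside 12.6% of all genes.

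Mrpl10 rose to 49.2, 43.4, 48.4, 52.1 and 45.0 CPM, against 38.8 to 43.6 CPM in the model. Combination mouse 2 lay just inside the model range, and the log2 fold change was 0.23 ± 0.06 (adjusted p = 0.0154). Mrps17 fell to 45.3, 41.1, 46.6, 39.6 and 40.3 CPM, below all model mice (−0.25 ± 0.07, adjusted p = 0.0163). These 2 genes were also called in the comparison of model with wild type, in the other direction each time. The model mice enter both comparisons, so an extreme value there would move both. Mrps17 was 42.5 ± 2.86 CPM in wild type, 50.7 ± 2.69 in the model and 42.6 ± 3.16 with the combination.

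Mrpl44, a large subunit protein with a ribonuclease III fold (chr1:79753735-79759162), was 17.7 to 20.8 CPM in the model and 20.7 to 23.1 CPM with the combination, barely overlapping (0.25 ± 0.08, adjusted p = 0.0276). Mrpl48 (chr7:100194958-100257508) was 48.1, 45.7, 53.9, 57.2 and 48.9 CPM in the model and 35.0, 40.6, 40.8, 42.0 and 45.7 CPM with the combination, which just meet (−0.31 ± 0.09, adjusted p = 0.0225). Both genes overlap another gene in the table, Mrpl44 by 126 bases with Wdfy1 and Mrpl48 by 892 bases with Rab6a. The mean count of Rab6a, 17581, was above the 3559 of Mrpl48. Rab6a was 229.8 to 251.8 CPM in the model and 183.0 to 210.8 CPM with the combination, so it was lower there too. Wdfy1 was 18.51 to 47.19 and 14.76 to 54.95 CPM. The strand setting of the counting is not given in the sources used here, so reads in the shared stretches cannot be assigned with certainty. Their part in these calls was not tested.

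With the hypothalamus score in the fit, no member and no other gene was called in the combination. Mrpl10 moved from 0.23 to 0.07 and Mrps17 from −0.25 to −0.18, while Mrpl44 was at 0.21 and Mrpl48 at −0.38. The score was −0.04 to 1.76 in model mice and 1.84 to 4.17 in combination mice, without overlap. Score and group can therefore hardly be separated in this fit. Leaving out model mouse 4, combination mouse 1 or combination mouse 4 left 2 calls each.

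**Figure D3:**
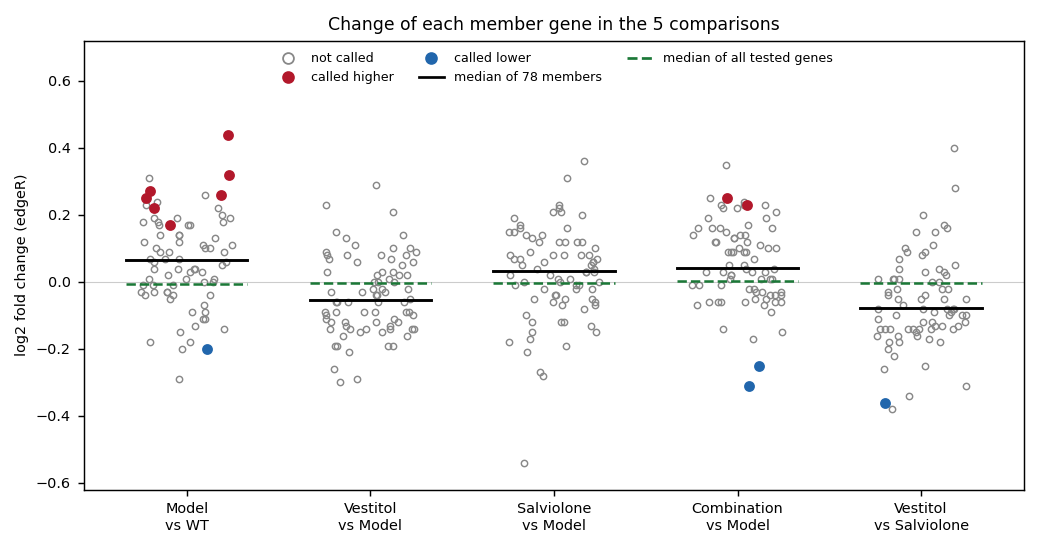
Log2 fold change (edgeR) of each of the 78 genes in the 5 comparisons; filled points are called at an adjusted p under 0.05, the solid line is the median of the members and the dashed line that of all 16515 tested genes. Called members are few (8, 0, 0, 4 and 1), and no estimate lies further from 0 than −0.54 (Mrps25, not called).

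Vestitol and salviolone were given at the same dose for the same time, and were compared directly. Of the members 1 was called, lower with vestitol, or 1.28% beside 0.684% of all tested genes (0.593% higher and 0.0908% lower). Estimates were below 0 in 55 of 78 members, with a median of −0.078 against −0.002 for all genes. Mrpl2, which lines the peptidyl transferase centre (chr17:46957155-46961065), was 14.2, 14.6, 14.6, 17.4 and 16.2 CPM with vestitol and 18.0, 18.7, 20.4, 22.1 and 19.6 CPM with salviolone. No vestitol mouse reached the salviolone mice, and the log2 fold change was −0.36 ± 0.08 (edgeR, adjusted p = 0.0388). In the model mice it was 16.1 to 18.7 CPM and in wild type mice 14.6 to 20.9 CPM, and each of these ranges overlapped both compound groups. Of 6 striatum markers 1 (16.7%, beside 0.684% of all tested genes) was called higher with vestitol than with salviolone. Their median log2 fold change was 0.529, with 6 of 6 above 0. With the combination 5 of 6 (83.3%, beside 15% of all tested genes) were called higher than in the model. Mrps7, at 28.6 to 32.9 CPM with vestitol and 34.0 to 35.4 CPM with salviolone, was the other of 2 members without overlap (2.56% beside 2.94% of all genes), and it was not called.

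Next by p were Mrps24 (−0.34 ± 0.11, adjusted p = 0.159), Mrpl51 (−0.18 ± 0.06, adjusted p = 0.173) and Mrpl58 (−0.31 ± 0.10, adjusted p = 0.197). With the hypothalamus score Mrpl2 was still called (−0.37, adjusted p = 0.0388). Its call was lost with only the 2 groups in the fit (adjusted p = 0.102), and without vestitol mouse 1, 2 or 3 or salviolone mouse 3, 4 or 5 (adjusted p 0.0867 to 0.141). Without vestitol mouse 3, Mrps24 was called (−0.43, adjusted p = 0.0434).

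**Figure D4:**
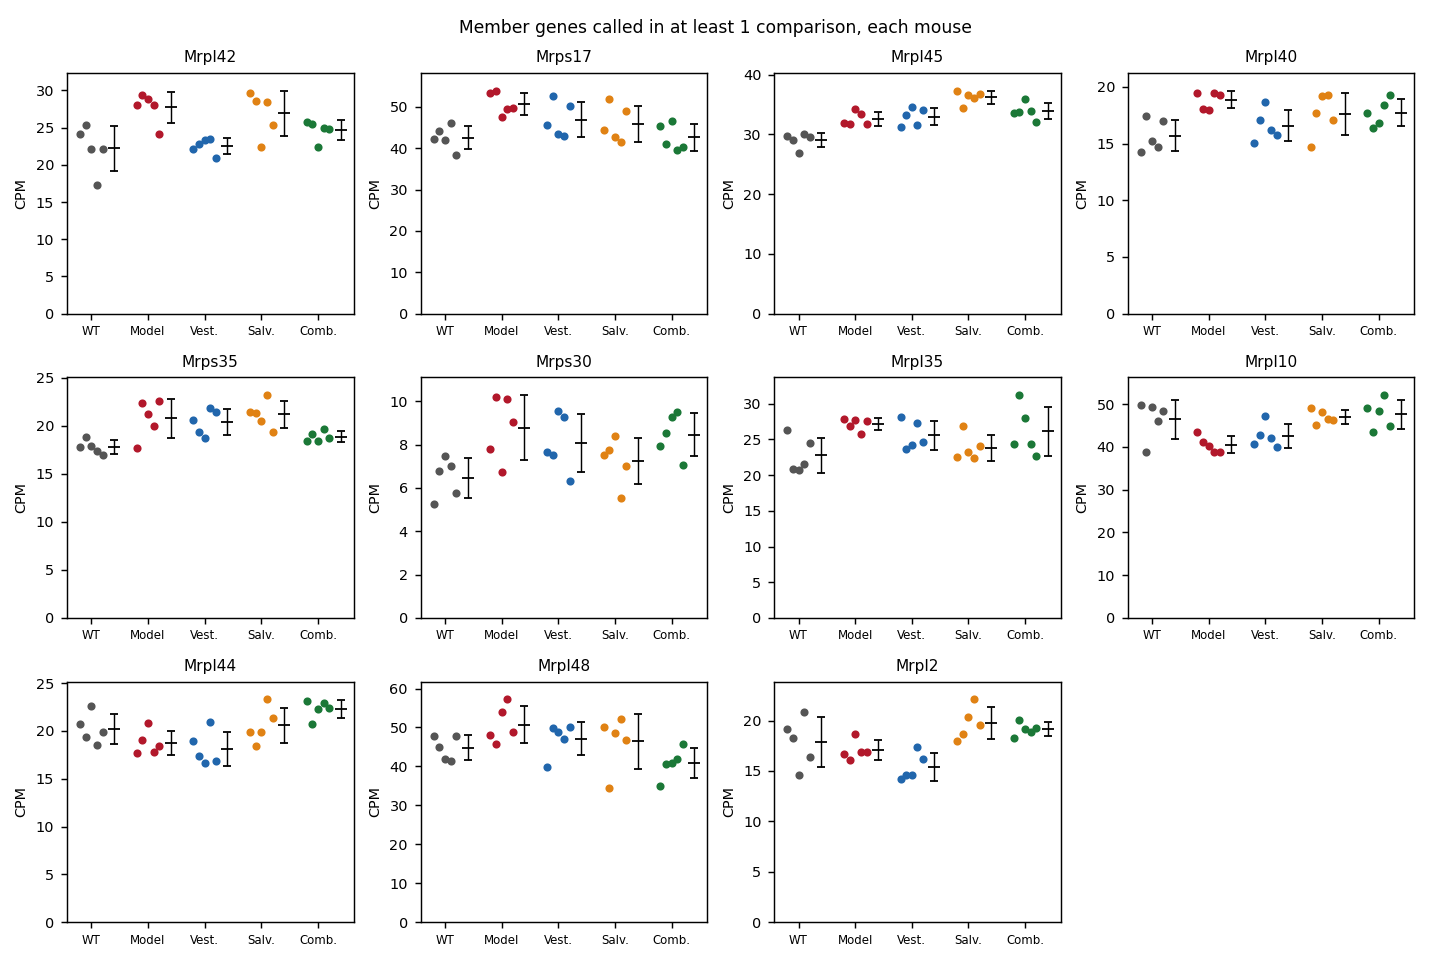
CPM in each mouse of the 11 members called in at least 1 comparison, with mean and SD of the 5 mice beside them; axes start at 0. The shifts between groups are small beside the level: Mrps17 is 42.5 CPM on average in wild type, 50.7 in the model and 42.6 with the combination.

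Genes that build or serve the mitochondrial ribosome were looked at in the same fit. Its 5 proteins with other symbols (Dap3, Ptcd3, Chchd1, Aurkaip1 and Gadd45gip1) were called in none of the comparisons. Dap3, a GTP-binding small subunit protein, was 56.8 ± 2.17 CPM in wild type, 57.5 ± 3.26 in the model and 61.2 ± 4.46 with the combination. Of 27 assembly and rRNA modification genes, 1 was called in 1 comparison: Mrm1, which methylates the large rRNA, fell with the combination from 19.7 ± 1.29 to 15.9 ± 1.00 CPM (−0.31 ± 0.09, adjusted p = 0.0288).

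Of 15 translation factors, the elongation factor Gfm1 was higher in the model than in wild type (0.20 ± 0.05, adjusted p = 0.0141). The elongation factor Tsfm was higher with the combination than in the model (0.29 ± 0.10, adjusted p = 0.041). Taco1, which aids translation of cytochrome oxidase subunit I, was 11.3 to 14.5 CPM with vestitol and 15.1 to 18.1 CPM with salviolone (−0.37 ± 0.08, adjusted p = 0.0229). Of 21 genes that charge mitochondrial tRNAs, Yars2 rose (0.38 ± 0.12, adjusted p = 0.046) and Gatb fell (−0.30 ± 0.08, adjusted p = 0.0129) in the model, with none called in the other comparisons.

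Of 12 genes of mitochondrial transcription and genome maintenance, the transcription factor Tfb2m rose in the model (0.39 ± 0.10, adjusted p = 0.013). Of 9 regulators of nuclear mitochondrial genes, Esrra, a nuclear receptor that drives many of them, went from 40.1 ± 5.09 to 52.4 ± 4.81 CPM in the model (0.39 ± 0.08, adjusted p = 0.00308). The coactivator Ppargc1a fell with the combination from 54.7 ± 6.87 to 45.7 ± 4.09 CPM (−0.26 ± 0.08, adjusted p = 0.0321). Neither was called in any other of the 5 comparisons. By list, the calls were 3.7% of assembly genes (combination), 8.33% of transcription and maintenance genes (model) and 9.52% of tRNA charging genes (model). They were 6.67% of translation factors in each comparison named, and 11.1% of regulators in the model and with the combination. Of all tested genes 11.6% were called in the model, 15% with the combination and 0.684% between vestitol and salviolone. Each of these list shares in the model and with the combination was thus below that of all tested genes.

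The mRNAs that the ribosome translates were set beside its protein genes. All 13 mitochondrially encoded mRNAs were called higher with vestitol than with salviolone (100% beside 0.684% of all tested genes). Their median log2 fold change was 0.774 (range 0.55 to 0.95), where the median of the ribosomal protein genes was −0.078. Against the model 0 of 13 were called with vestitol (median 0.323, beside 0% of all tested genes called). With salviolone 0 of 13 were called too (median −0.463, beside 0.0242%). With the combination 6 of 13 fell against the model (46.2% beside 15%, median −0.334). In the model 2 of 13 (mt-Co3 and mt-Atp8) were lower than in wild type (15.4% beside 11.6%). Nuclear oxidative phosphorylation subunits are the partners of those products. Of these, 7 of 78 were higher in the model (8.97% beside 11.6%) and 4 with the combination (5.13% beside 15%). With vestitol against salviolone 1 was higher and 4 were lower (6.41% beside 0.684%). Cytosolic ribosomal protein genes had 27 of 80 higher and 1 lower with the combination (35% beside 15%) and 0 called in the other 4 comparisons.

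Promoter windows were read for members that had one in the RefSeq table, which uses the older build GRCm38.p6: 75 windows of 69 members, each from 250 bases before to 50 after a start site. They were searched on both strands for the cores CGCATGCG (NRF1), CCGGAAG (ETS factors) and AAGATGGC (YY1), motifs known from genes of mitochondrial proteins; an ETS and a YY1 match can share the letters AAG. The NRF1 core was in 9.33% of member windows, against 1.87% of all 32851 windows and 3.15% of the 16357 windows of tested genes. The ETS core was in 34.7%, against 8.86% and 14.2%, and the YY1 core in 16%, against 2.75% and 3.63%. Median GC content was 58.7% in member windows and 59.7% in those of tested genes. Matches are a description of letters and show no binding.

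Mrpl10 and Mrps17 were each called in a pair of comparisons, and Mrpl51 was one of the 2 highest by FPKM. Upstream sequences are given for these 3 members. Each is the 200 bases before the start site on the gene's strand (here + for all), with matches in capitals: the NRF1 core in Mrpl10, from 135 to 128 bases before the start, and the ETS core in Mrpl51, from 90 to 84 bases before it. Mrps17 holds none of the 3 in its window, and neither does Mrpl30, the highest by FPKM, whose sequence is not given. Of all member windows, 50.7% held at least 1 of the 3. The GRCm38.p6 positions are chr11:97041382-97041581 for Mrpl10, chr5:129715297-129715496 for Mrps17 and chr6:125192000-125192199 for Mrpl51.
Mrpl10: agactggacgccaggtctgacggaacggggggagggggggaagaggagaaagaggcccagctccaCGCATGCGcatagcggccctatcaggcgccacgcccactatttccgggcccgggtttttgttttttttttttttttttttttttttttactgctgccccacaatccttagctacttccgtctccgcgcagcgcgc
Mrps17: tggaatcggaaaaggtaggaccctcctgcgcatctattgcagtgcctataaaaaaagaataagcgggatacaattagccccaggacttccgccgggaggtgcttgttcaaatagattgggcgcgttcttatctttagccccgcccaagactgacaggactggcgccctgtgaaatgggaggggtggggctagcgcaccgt
Mrpl51: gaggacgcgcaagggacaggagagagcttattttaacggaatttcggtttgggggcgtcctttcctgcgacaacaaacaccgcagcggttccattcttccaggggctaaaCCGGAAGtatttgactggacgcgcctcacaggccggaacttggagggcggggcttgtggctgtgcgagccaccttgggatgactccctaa

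A few members spread more widely between mice than the rest of the family. They were chosen after their values were seen, as those with the widest spread within groups. Mrpl1, the protein of the stalk that helps release the used tRNA, was 8.91, 7.94, 8.74, 10.3 and 0.847 CPM in the model. Model mouse 5 thus stood far below every other mouse (5.80 to 10.3 CPM), with a count of 66 where the lowest of the other 24 was 379. The nearest tested genes on both sides did not share this: Cnot6l was 36.3 CPM in that mouse against 29.4 to 46.3 in the others, and Fras1 71.2 CPM against 62.4 to 124.

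Mrps25, of the small subunit, was 41.2 to 44.3 CPM in wild type but 50.8, 38.7, 30.9, 40.8 and 93.1 CPM in the model and 84.6, 36.6, 33.2, 36.9 and 39.3 CPM with vestitol. Model mouse 5 and vestitol mouse 1 stood above all other mice. Mrps25 (chr6:92146506-92161014) shares 3533 bases with Nr2c2, a nuclear receptor gene, and Nr2c2 was lowest in the same mice, at 154.8 CPM in model mouse 5 and 154.9 CPM in vestitol mouse 1. The sum of the 2 genes was 221 to 255 CPM over all 25 mice, with 247.9 CPM in model mouse 5 and 239.5 CPM in vestitol mouse 1. The SD of log2 CPM within groups was 0.400 for Mrps25 and 0.137 for Nr2c2, and 0.0482 for their sum. How reads in the shared stretch were assigned was not tested.

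Mrps23, also of the small subunit, was 31.5 to 34.3 CPM in 6 mice (1 wild type, 1 vestitol, 2 salviolone and 2 combination mice). In the other 19, which include all 5 model mice, it was 17.7 to 27.6 CPM. Mrpl14, the counterpart of a bacterial protein at the interface of the subunits, was 14.7 CPM in model mouse 2 and 18.1 CPM in combination mouse 2, where the 5 wild type mice were 7.32 to 9.01 CPM. Mrpl36, a small zinc-binding protein with a bacterial counterpart, spread from 6.17 to 13.3 CPM without 1 mouse standing apart. None of these 5 genes was called in any comparison.

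**Figure D5:**
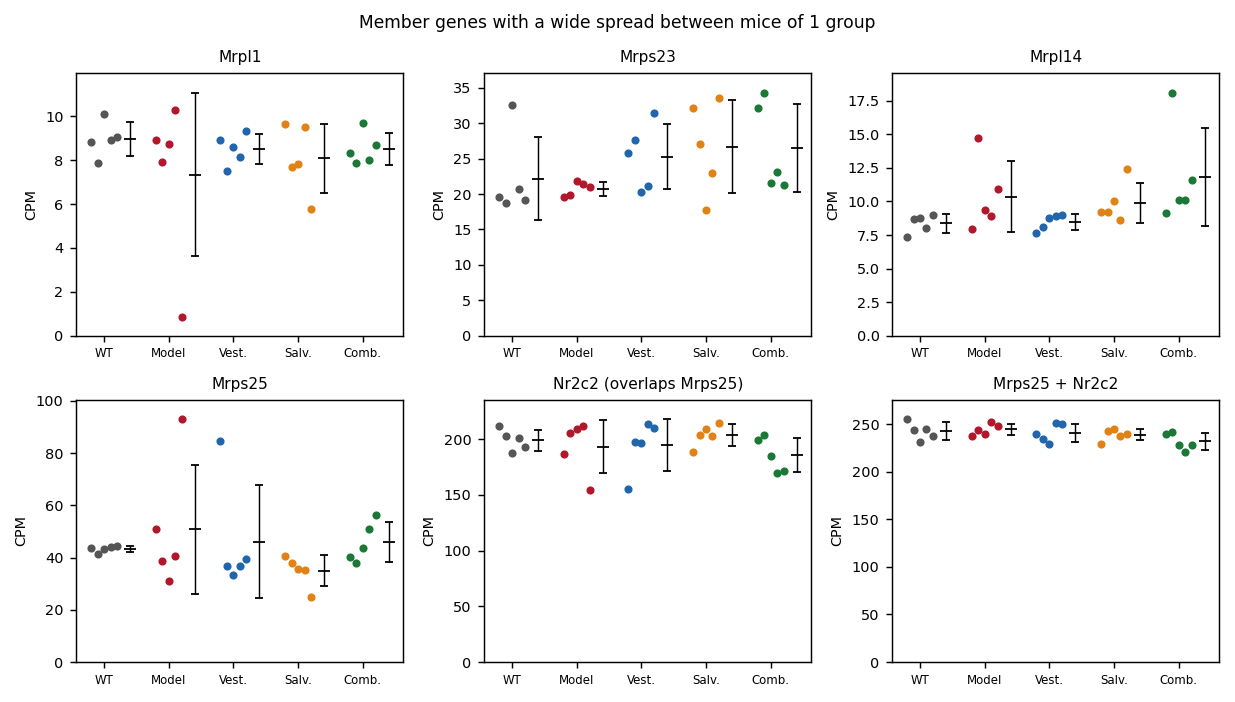
CPM in each mouse of Mrpl1, Mrps23, Mrpl14 and Mrps25, of Nr2c2, which overlaps Mrps25, and of the sum of the latter pair, with mean and SD of the 5 mice beside them; axes start at 0. Mrpl1 is at 0.847 CPM in 1 model mouse, and in the 2 mice with the most Mrps25 Nr2c2 is lowest, while the sum is 221 to 255 CPM in all mice.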

How the data were processed

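RNA-seq of the cortex was analysed in 25 mice, 5 per group. The authors trimmed reads with Trim Galore and aligned them with STAR to mm39, per the submitters' processing notes; how reads were counted, with which annotation and strand setting, is not given in the sources used here. Deposited were the authors' raw counts and their FPKM, 1 column per mouse. Of counts from 4 to 39, 44.3% were multiples of 4 (25% by chance; among members' counts 27.4%), so counts divided by 4 were tried as an alternative, chosen after seeing the data.

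Counts were filtered with filterByExpr (minimum count 10), which left 16515 genes, scaled by TMM (factors 0.980 to 1.04) and fitted over all 25 samples in edgeR 4.0.16 (R 4.3.3) with 1 coefficient per group and the robust quasi-likelihood test, two-sided. P values were adjusted by Benjamini-Hochberg over all tested genes in each of 5 comparisons, and called under 0.05. The labels name separate mice as samples. A score is the mean log2 CPM of a list's genes, with a prior count of 2. Levels between genes use the deposited FPKM. Samples with the same replicate number were checked for pairing (correlations −0.0921 to 0.0807), and none was found.

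The members, the gene lists and the tests were chosen with earlier results of these data known. Named members were those called (up to 12 per direction, or the 4 with the smallest p), the 5 highest and lowest by FPKM, the Mrps18 paralogs, Mrps36, Mrps30 and Mrpl12. Members with the widest spread were added after seeing the values. Of the listed companion genes, 1 was not in the table. Alternatives were RLE size factors, no filter, at least 1 CPM in 5 samples, DESeq2 1.42.0, limma 3.58.1 on log2(FPKM + 0.1) and log2(FPKM + 1) for genes of at least 0.5 FPKM, only the groups compared, a replicate block, the hypothalamus score as covariate and leaving out each mouse.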

Additional observations from a re-analysis of the deposited data

Results flagged for a closer look

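In groups of 5 mice, a value was singled out when its gap to the nearest other value, divided by the group's range, was above Dixon's 95% critical value. This applied to 12 of 150 groups (29 members and the members' mean), where chance gives about 1 in 20. It also applied to 4 groups of the 5 genes that were added for their wide spread, a choice that favours such values.

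In the model, Mrpl1 was 0.847 CPM in mouse 5 (other mice 7.94 to 10.3), Mrpl42 was 24.2 CPM in mouse 5 (28.0 to 29.4), Mrpl13 was 17.5 CPM in mouse 3 (19.5 to 20.1) and Mrpl2 was 18.7 CPM in mouse 3 (16.1 to 16.9). The mean log2 CPM of the 78 genes was 4.34 in model mouse 1 (4.36 to 4.37). In wild type, Mrps23 was 32.5 CPM in mouse 3 (18.8 to 20.7), the mouse with pituitary transcripts.

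With vestitol, Mrps25 was 84.6 CPM in mouse 1 (33.2 to 39.3), Mrpl48 was 39.8 CPM in mouse 1 (47.1 to 50.1), Mrpl13 was 15.7 CPM in mouse 2 (17.1 to 17.7) and Mrps18a was 25.7 CPM in mouse 3 (28.5 to 29.2). With salviolone, Mrpl13 was 13.3 CPM in mouse 3 (17.7 to 19.0). With the combination, Mrpl14 was 18.1 CPM in mouse 2 (9.16 to 11.6) and Mrpl42 was 22.4 CPM in mouse 3 (24.8 to 25.7). Combination mouse 1 stood apart in 3 genes: Mrpl54 at 9.84 CPM (7.48 to 7.88), Mrpl57 at 9.56 CPM (6.17 to 7.14) and Mrps18b at 12.0 CPM (14.3 to 14.7).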

How the results depend on the processing

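No estimate changed sign in 504 repeats of 24 results for named members; of the 13 called results, 192 of 273 repeats kept the call and 81 lost it, and of the 11 not called, 1 of 231 gained one. Against wild type, the model had 8 members called, but 0 with only the 2 groups in the fit, 0 with the hypothalamus score as covariate and 2 to 9 with 1 mouse left out. Their median log2 fold change of 0.066 was 0.044 with limma on log2(FPKM + 0.1), 0.038 on log2(FPKM + 1) and 0.036 to 0.079 with 1 mouse left out. For the combination, 4 calls became 0 with the hypothalamus score, 6 with limma at either pseudocount and 2 to 5 with 1 mouse left out; the median of 0.043 was 0.065 with limma on log2(FPKM + 0.1). For vestitol against salviolone, the 1 call became 0 with only the 2 groups and 0 to 1 with 1 mouse left out, and the median of −0.078 was −0.099 (without salviolone mouse 3) to −0.064 (without salviolone mouse 1). A replicate block gave 7, 4 and 1 calls in these 3 comparisons, and 0 for each compound against the model. The share of all genes called in the same fit is given above for only some settings. For the other settings, a change in member calls cannot be told from a change in calls over all genes. No pairing of same-numbered mice was found. The cause of these changes was not tested, except that fewer mice enter some fits. The 95% intervals of single members, about 0.168 log2 units to each side, limit what 5 mice per group can show.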
